A study of Mus musculus with 46 samples.

Results

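The genes described here encode proteins of the spliceosome and of the related LSm family. They were taken by symbol from the deposited RNA table. The rule kept every symbol beginning with Lsm, Sf3a, Sf3b or Srsf followed by its number, and any beginning with Snrp or Prpf. The rule found 30 genes among the 7182 genes used: 12 LSm genes, 8 SF3 genes and 10 SR protein genes. No Snrp or Prpf gene was among them, so the Sm ring proteins and the PRP factors were not analysed here, and neither was Lsm8. Rbbp5 itself was not analysed here either, so the loss of the targeted gene could not be checked in these libraries.

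The libraries came from mouse embryos that had lost Rbbp5 (KO) and from wild-type (WT) embryos. Rbbp5 encodes a core subunit shared by the complexes that methylate lysine 4 of histone H3. Zygotes had received either Cas9 mRNA with a guide RNA against Rbbp5, in wild-type zygotes, or Cre mRNA, in zygotes carrying the Rbbp5 flox/flox alleles. The labels do not say which route gave which library. RNA was measured by SMART-seq2 in 7 KO and 7 WT inner cell masses (ICM) of single embryos at embryonic day 3.5 (E3.5), in 3 KO and 7 WT single epiblast cells at E4.5, in 2 KO and 1 WT single primitive endoderm (PE) cells at E4.5, and in 3 KO and 3 WT hand-dissected epiblasts at E5.5. ICM and E4.5 cells were isolated by immunosurgery.

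The spliceosome removes introns from pre-mRNA in steps carried by small nuclear ribonucleoproteins. LSm2 to LSm8 form the ring that holds the end of U6 RNA, while LSm1 joins LSm2 to LSm7 in a cytoplasmic ring that promotes mRNA decapping. SF3A and SF3B are multi-subunit parts of the U2 particle that recognise the branch site, and SR proteins bind exons and recruit the splicing machinery. These are housekeeping factors that dividing embryonic cells use throughout development.

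All values are the authors' FPKM (fragments per kilobase of transcript and per mapped library size), which carry no read counts, so absolute depth is unknown. The steps between low FPKM values gave a rough relative depth: 76.8% to 97.6% of the deepest embryo library in KO ICM, 88.6% to 100% in WT ICM, 75.3% to 99.7% in KO E5.5 epiblast and 65.5% to 94.0% in WT E5.5 epiblast. KO ICM libraries held 3628 to 5136 detected genes (1 FPKM or above), against 5110 to 5718 in WT ICM. KO ICM libraries 1, 4 and 6 held the fewest, with 3628, 3642 and 3883 genes, and stand apart from the others in the results that follow. KO E5.5 epiblasts held 5457 to 5895 such genes and WT E5.5 epiblasts 5738 to 5805. The labels do not give separate litters or days for the libraries, so p-values measure the spread between these embryos.

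Marker genes fixed for each tissue were read first. The 8 ICM and epiblast markers in the table summed to 131 to 522 FPKM in KO ICM and to 239 to 530.0 FPKM in WT ICM, and each reached 1 FPKM in at least 1 library of both groups. In the E5.5 epiblasts the same list summed to 263 to 524 FPKM in KO and to 1090 to 1232 FPKM in WT. The 9 trophectoderm markers summed to 1280 to 2631 FPKM in KO E5.5 epiblast, against 78.2 to 122 FPKM in WT E5.5 epiblast. Among them Krt18, a keratin of trophoblast epithelium, ranged from 664 to 1310.4 FPKM in KO and from 60.6 to 98.2 FPKM in WT. Pou5f1, the defining factor of the pluripotent epiblast, ranged from 4.57 to 19.9 FPKM in KO and from 103 to 190.4 FPKM in WT. Of the 8 ICM and epiblast markers, 5 were lower in every KO library than in every WT library, Sox2 overlapped, and Esrrb (1.35 to 5.59 FPKM in KO and at most 0.0739 FPKM in WT) and Klf4 (0.280 to 1.29 FPKM in KO and at most 0.209 FPKM in WT) were higher in every KO library. Of the trophectoderm markers, 8 of 9 were higher in every KO library, and Cdx2 was listed at 0 in all WT libraries and at 0 to 3.21 FPKM in KO. These differences accompany every comparison of KO with WT at E5.5.

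The promoters of the members are shown first for the genes on which the embryo comparisons turn. RefSeq gave a promoter window, from 250 bases before to 50 bases after the annotated start on GRCm38.p6, for 25 of the 30 members. They were rich in CpG dinucleotides, with a median of 25 per window, against 21 in the 5528 windows of genes in the table and 7 in all 27025 windows. In the main tests, the genes of the first 4 windows below, all of the LSm ring, were higher in KO ICM. The next pair are SF3 genes that were lower in KO at both embryonic stages in those tests. The last is Srsf2, the member that was higher in KO E5.5 epiblast. The ICM results did not hold under all other settings, as given below. Each is written 5′ to 3′ on the gene's own strand, and capitals mark any match, on either strand, to the TATA box core TATAAA, the CCAAT box, the GC box core GGGCGG, the ETS core CCGGAAG, the NRF1 motif GCGCATGC and the YY1 core AAGATGG, with overlapping matches run together.
Lsm2 (chr17:34981604-34981903, plus strand): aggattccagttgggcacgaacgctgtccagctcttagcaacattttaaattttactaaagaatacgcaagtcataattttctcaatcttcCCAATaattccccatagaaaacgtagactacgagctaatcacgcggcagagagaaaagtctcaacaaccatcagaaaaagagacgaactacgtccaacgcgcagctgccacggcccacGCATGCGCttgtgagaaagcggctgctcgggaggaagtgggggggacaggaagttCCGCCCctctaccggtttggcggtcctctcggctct
Lsm5 (chr6:56704650-56704949, minus strand): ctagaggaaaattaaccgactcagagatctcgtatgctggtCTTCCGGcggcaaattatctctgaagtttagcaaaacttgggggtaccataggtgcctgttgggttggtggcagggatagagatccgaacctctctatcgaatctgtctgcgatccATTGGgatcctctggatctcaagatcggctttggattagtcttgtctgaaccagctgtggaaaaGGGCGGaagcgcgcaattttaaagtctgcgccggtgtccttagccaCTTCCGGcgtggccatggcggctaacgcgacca
Lsm6 (chr8:78821103-78821402, minus strand): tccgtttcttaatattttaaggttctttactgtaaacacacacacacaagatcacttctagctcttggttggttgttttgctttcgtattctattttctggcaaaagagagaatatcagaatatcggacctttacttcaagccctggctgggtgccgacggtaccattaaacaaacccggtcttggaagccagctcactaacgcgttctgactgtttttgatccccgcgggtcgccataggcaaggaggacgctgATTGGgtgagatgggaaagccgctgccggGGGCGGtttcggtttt
Lsm7 (chr10:80855160-80855459, minus strand): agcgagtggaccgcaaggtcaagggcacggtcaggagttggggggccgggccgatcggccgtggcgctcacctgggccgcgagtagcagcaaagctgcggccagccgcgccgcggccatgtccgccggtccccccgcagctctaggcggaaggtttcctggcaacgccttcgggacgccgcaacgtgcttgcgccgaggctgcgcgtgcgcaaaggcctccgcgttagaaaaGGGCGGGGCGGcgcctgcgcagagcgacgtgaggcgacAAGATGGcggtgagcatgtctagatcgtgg
Sf3a1 (chr11:4160104-4160403, plus strand): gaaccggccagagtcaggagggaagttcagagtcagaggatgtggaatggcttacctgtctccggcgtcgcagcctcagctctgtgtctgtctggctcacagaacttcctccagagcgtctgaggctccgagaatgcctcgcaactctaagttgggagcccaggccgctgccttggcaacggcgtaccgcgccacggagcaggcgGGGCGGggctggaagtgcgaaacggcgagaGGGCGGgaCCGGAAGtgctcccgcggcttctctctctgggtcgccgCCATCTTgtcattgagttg
Sf3b3 (chr8:110846754-110847053, minus strand): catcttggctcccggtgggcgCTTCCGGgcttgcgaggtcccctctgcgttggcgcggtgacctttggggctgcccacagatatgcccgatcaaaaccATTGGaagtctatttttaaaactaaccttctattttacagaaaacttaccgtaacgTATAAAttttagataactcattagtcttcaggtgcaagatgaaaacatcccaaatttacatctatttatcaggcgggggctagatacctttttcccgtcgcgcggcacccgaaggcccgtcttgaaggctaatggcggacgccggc
Srsf2 (chr11:116853045-116853344, minus strand): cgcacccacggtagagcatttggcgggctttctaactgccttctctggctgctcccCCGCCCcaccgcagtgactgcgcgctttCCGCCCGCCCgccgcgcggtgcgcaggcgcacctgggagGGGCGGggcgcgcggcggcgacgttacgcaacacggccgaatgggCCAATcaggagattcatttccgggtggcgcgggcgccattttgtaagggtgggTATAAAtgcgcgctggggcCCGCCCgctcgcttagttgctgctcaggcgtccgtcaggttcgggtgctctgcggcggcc

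The GC box core GGGCGG was found in 20 of the 25 member windows (80%), against 66.0% of windows of genes in the table and 35.9% of all windows. The ETS core CCGGAAG was found in 10 (40%), against 19.0% and 9.12%. CCAAT occurred in 11 (44%, against 39.9% and 37.9%), TATAAA in 3 (12%, against 6.91% and 14.2%), GCGCATGC in 3 (12%, against 5.86% and 2.80%) and AAGATGG in 2 (8%, against 7.58% and 6.48%). Of the 4 LSm ring windows printed, all hold a GC box core, Lsm5 holds a pair of ETS cores, and Lsm2 holds the GCGCATGC match. A match is a description of the letters in the window, and no binding was measured at these sites here.

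The members differed widely in level. In WT ICM the means ran from 0.299 ± 0.221 FPKM for Lsm14b, a paralogue of the P-body protein LSm14a, to 469 ± 94.9 FPKM for Sf3b5, the small subunit of SF3B (SD, n = 7). Lsm2 (335 ± 54.9 FPKM), Lsm7 (269 ± 36.0 FPKM), Srsf3 (250.3 ± 22.4 FPKM) and Srsf7 (231 ± 36.2 FPKM) followed, and the SDs of neighbours in this order overlap. Srsf3 and Srsf7 encode small SR proteins that also take part in mRNA export. Lsm11, which with Lsm10 replaces a pair of Sm proteins in the U7 particle of histone mRNA processing, stayed at 0 to 1.97 FPKM in KO ICM and 0 to 0.776 FPKM in WT ICM. Summed over the 30 genes, KO ICM libraries held 2929.6 to 3542 FPKM and WT ICM libraries 2350.1 to 2773 FPKM, while KO E5.5 epiblasts held 2636 to 3101 FPKM and WT E5.5 epiblasts 3342 to 3522 FPKM. The groups did not overlap at either stage, and the sums stood in opposite order at the 2 stages. As a share of the summed FPKM of each library the ICM groups did overlap, at 0.922% to 1.08% in KO and 0.823% to 0.940% in WT, and at E5.5 they did not, at 0.845% to 0.986% in KO and 1.11% to 1.17% in WT.

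**Figure D1:**
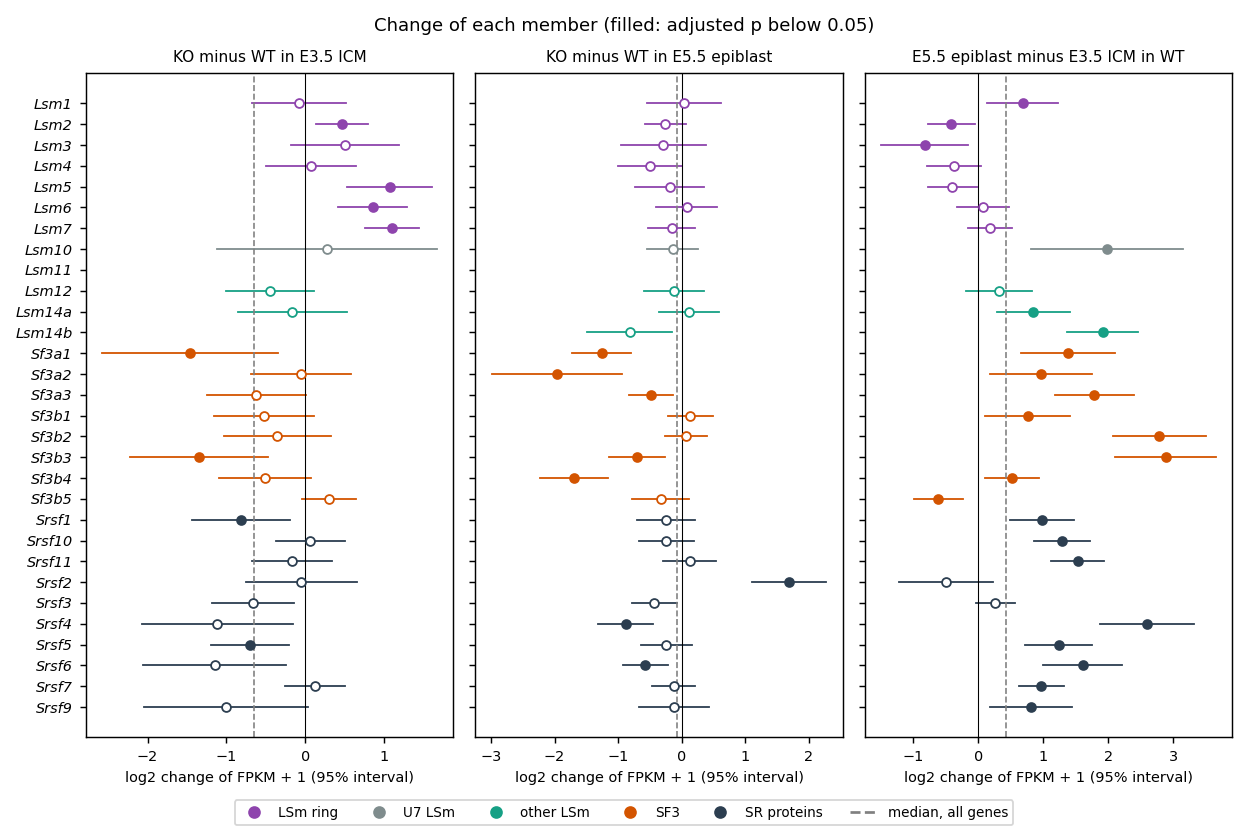
Change of each member on the log2(FPKM + 1) scale with its 95% interval in 3 comparisons: KO minus WT in E3.5 ICM, KO minus WT in E5.5 epiblast and E5.5 epiblast minus E3.5 ICM in WT. Colours give the role group, filled points have adjusted p below 0.05, and the dashed line is the median of all genes tested, at -0.65, -0.07 and 0.43.

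The first comparison asked how loss of Rbbp5 altered these genes in the E3.5 ICM. Of the LSm ring genes, 4 of 7 tested were higher in KO ICM, and no LSm gene was lower. On the other side, 2 of 8 SF3 genes and 2 of 10 SR protein genes were lower, and none was higher. Tests used limma on log2(FPKM + 1), adjusted over all 5443 genes that averaged 1 FPKM or above, and a gene is called at an adjusted p below 0.05. Of all genes tested 28.3% were called, 3.44% higher and 24.9% lower, and the median gene stood at -0.65. Of the 28 members tested, 14.3% were called higher and 14.3% lower, with a median change of -0.17. No member had KO libraries that all lay below the WT libraries, against 3.33% of all genes. The other 2 members, Lsm11 and Lsm14b, were too low to test.

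Lsm7, a ring subunit of both the U6 and the decapping complexes, ranged from 451 to 824 FPKM in KO ICM, with a median of 582, and from 216 to 315 FPKM in WT ICM, with a median of 255. The groups did not overlap, which held in the higher direction for 1.29% of all genes tested. The change was 1.10 on the log2 scale (SE 0.163, adjusted p = 0.00184), or 1.76 above the median gene. Lsm5 ranged from 192 to 724 FPKM in KO ICM, with a median of 372, and from 158 to 226 FPKM in WT ICM, with a median of 187. The KO libraries were spread over a wide range, and KO library 7 lay within the WT values. The Lsm5 change was 1.07 (SE 0.255, adjusted p = 0.00741).

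Lsm6 ranged from 159 to 345 FPKM in KO ICM, with a median of 205, and from 102 to 177 FPKM in WT ICM, with a median of 114, a change of 0.85 (SE 0.207, adjusted p = 0.00798). Lsm2 ranged from 357 to 551 FPKM in KO ICM, with a median of 460.2, and from 247 to 395 FPKM in WT ICM, with a median of 362, a smaller change of 0.46 (SE 0.156, adjusted p = 0.0356). Both sets of libraries overlapped at their edges. Lsm3, Lsm4 and Lsm1 were not called, with changes of 0.50 (SE 0.326), 0.07 (SE 0.271) and -0.09 (SE 0.285). Lsm1, the subunit that directs the ring to decapping, ranged from 9.46 to 23.1 FPKM in KO ICM and from 10.9 to 23.5 FPKM in WT ICM. The Lsm2 call ended without WT library 1, 2, 4 or 7 or KO library 3 or 4, each left out alone (0.39 to 0.52), while Lsm5, Lsm6 and Lsm7 were called without any single library.

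**Figure D2:**
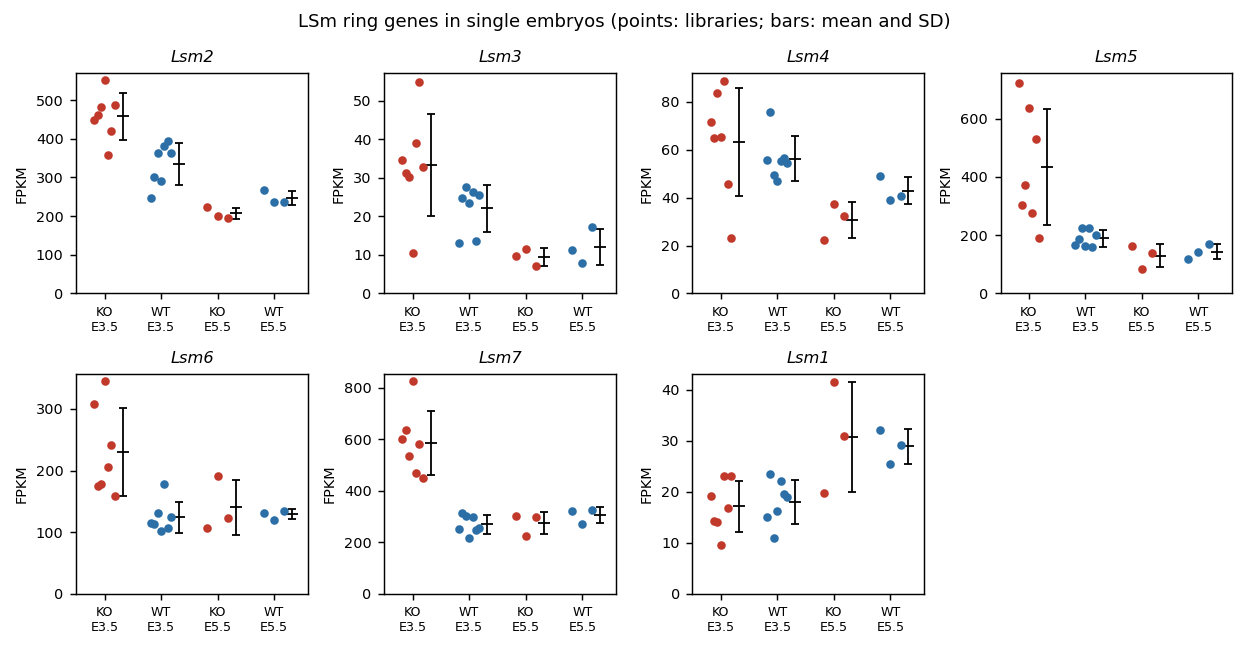
FPKM of the 7 LSm ring genes in single embryos, with KO left of WT at E3.5 (ICM, 7 libraries each) and at E5.5 (epiblast, 3 libraries each); points are libraries and bars the mean and SD. Lsm7 separates the ICM groups, at 451 to 824 FPKM in KO and 216 to 315 FPKM in WT, while at E5.5 the groups overlap for Lsm5, Lsm6 and Lsm7. At E5.5 the KO values of Lsm2 and Lsm4 all lie below the WT values.

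The highest Lsm5 and Lsm6 values lay in the KO libraries with the fewest genes, while the Lsm2 values of those libraries overlapped the other KO libraries. Lsm5 stood at 724, 635 and 532 FPKM in KO libraries 1, 4 and 6, which held the fewest genes, and at 304, 372, 277 and 192 FPKM in KO libraries 2, 3, 5 and 7. Lsm6 likewise stood at 308, 345 and 241 FPKM in libraries 1, 4 and 6, and at 175, 178, 205 and 159 FPKM in the others. Lsm7 reached its highest value, 824 FPKM, in library 4, but libraries 2, 3, 5 and 7 were still at 635, 535, 469.7 and 451 FPKM, above the WT maximum of 315 FPKM. Lsm2 stood at 449, 551 and 420 FPKM in libraries 1, 4 and 6, and at 460.2, 482, 357 and 488 FPKM in libraries 2, 3, 5 and 7. Within WT ICM, Lsm2 stood at 247 and 292 FPKM in libraries 1 and 4, which held the most genes (5718 and 5638). It stood at 395 and 363 FPKM in WT libraries 6 and 3, which held the fewest (5219 and 5110). The relative depth of libraries 1, 4 and 6 was 96.6%, 92.7% and 85.6%, within the range of the group.

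With those 3 libraries left out, Lsm7 was the single member called (0.95, adjusted p = 0.0167). Of all 5549 genes tested, 77 were then called higher and 328 lower. Lsm5 and Lsm6 stood at 0.57 and 0.54 (adjusted p = 0.0793 and 0.0746). The Lsm2 change was then 0.42, close to the 0.46 over all libraries, and was not called (adjusted p = 0.129). With the detected gene count added as a term limma called 0 of 28 members and 0 of 5443 genes, with 1 member and 314 genes at an unadjusted p below 0.05, and the Lsm7 change was 0.76. The Lsm2, Lsm5 and Lsm6 changes were then 0.25, 0.10 and 0.29. Quantile normalization moved the median gene to 0.03, and median ratio scaling moved it to -0.26. Under them 4 and 5 of the 7 ring genes were called higher, and all 7 had positive changes. Over all members 4 and 7 were called higher and 0 lower. Of all 5443 genes, 357 and 414 were then called higher and 351 and 468 lower. Lsm2 was not called under quantile normalization (0.24, adjusted p = 0.256), while Lsm3 was called under both (1.07 and 1.04). A lower number of cells of a type and less RNA per cell cannot be told apart in these libraries, and the part of the detected gene number in the LSm result was not tested further. Marker sums of other cell types also differed in range: the trophectoderm list summed to 21.6 to 145 FPKM in KO and 104 to 994 FPKM in WT, and the 11 PE markers to 19.1 to 75.5 FPKM in KO and 58.4 to 238 FPKM in WT; their part in the result was not tested.

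**Figure D3:**
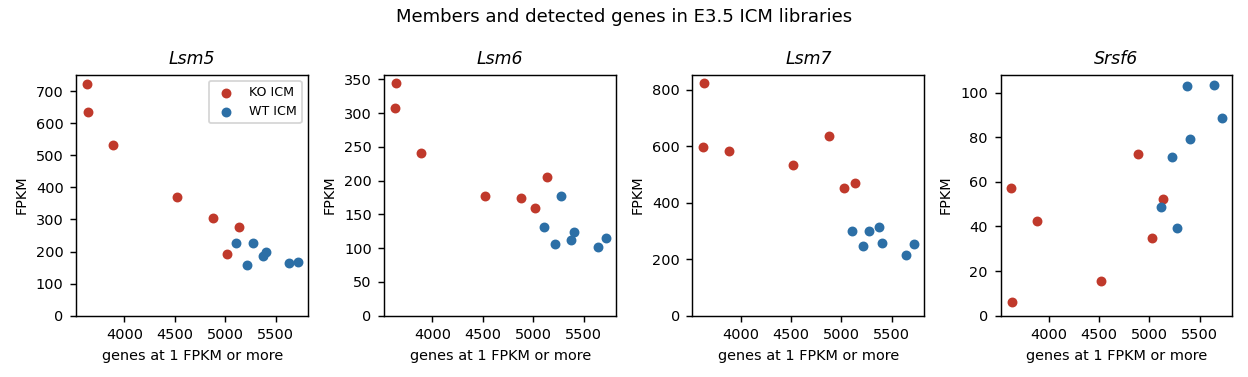
FPKM of Lsm5, Lsm6, Lsm7 and Srsf6 against the count of detected genes (at least 1 FPKM) in 7 KO and 7 WT E3.5 ICM libraries, each point a library. The 3 KO libraries with 3628 to 3883 genes have the highest Lsm5 and Lsm6 values, while Lsm7 is above the WT maximum in all 7 KO libraries.

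Of the 18 SF3 and SR protein genes, 4 were called lower in KO ICM, a share near that of all genes, and 3 of the other 14 had positive changes (Sf3b5 0.30, Srsf7 0.12 and Srsf10 0.06). Sf3a1, the largest subunit of SF3A, ranged from 0.0388 to 15.7 FPKM in KO ICM, with a median of 8.02, and from 9.48 to 26.7 FPKM in WT ICM, with a median of 15.2. The groups overlapped, and the change was -1.46 (SE 0.532, adjusted p = 0.0476). Sf3b3, the scaffold subunit of SF3B, ranged from 0.814 to 9.27 FPKM in KO ICM, with a median of 6.94, and from 5.89 to 26.5 FPKM in WT ICM, with a median of 17.8, a change of -1.35 (SE 0.417, adjusted p = 0.0248). Sf3b3 shares 207 bases of its annotated span (chr8:110810491-110846806) with Cog4, which changed by -1.38 (SE 0.425, adjusted p = 0.0242) in the same libraries, and since SMART-seq2 does not mark strand, reads from the shared stretch cannot be told apart.

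Srsf1, the SR protein that promotes use of weak splice sites, ranged from 8.45 to 23.6 FPKM in KO ICM, with a median of 11.3, and from 18.5 to 32.8 FPKM in WT ICM, with a median of 23.6 (-0.81, SE 0.296, adjusted p = 0.0472). Srsf5, which binds exonic enhancers, ranged from 24.4 to 41.8 FPKM in KO ICM, with a median of 30.8, and from 34.9 to 72.6 FPKM in WT ICM, with a median of 53.5 (-0.71, SE 0.236, adjusted p = 0.0334). The groups of both genes overlapped. Srsf6 (-1.15, adjusted p = 0.0526) and Srsf3 (-0.67, adjusted p = 0.0502) lay just outside the threshold. Relative to the median gene, the 4 called changes came to -0.80, -0.69, -0.16 and -0.05 for Sf3a1, Sf3b3, Srsf1 and Srsf5. None of the 4 was called under quantile normalization, median ratio scaling, the detected gene covariate or without KO libraries 1, 4 and 6. Under median ratio scaling 1 SF3 gene and 1 SR protein gene were called higher instead, Sf3b5 (0.86, adjusted p = 0.0110) and Srsf7 (0.68, adjusted p = 0.0320). With single libraries left out, the calls ended in 9 of 14 cases for Sf3a1, 10 for Srsf1, 7 for Srsf5 and 3 for Sf3b3 (WT libraries 1, 4 and 7), and all 4 ended without WT library 1, 4 or 7. The SF3 median, -0.52 as reported, was -0.06 and 0.03 under the 2 scalings, and the SR median, -0.69 as reported, was -0.20 and -0.13.

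Partner genes of the same machines were read as lists. In KO ICM the proteins that assemble small nuclear ribonucleoproteins had 6 of 12 tested genes lower and 0 higher, led by Prmt5 (-1.85, SE 0.350, adjusted p = 0.00279), the methyltransferase that modifies Sm proteins, Gemin4 (-2.39, SE 0.512, adjusted p = 0.00451) and Ddx20 (-1.02, SE 0.272, adjusted p = 0.0125), both of the SMN complex. The list median was -0.95, beside -0.65 over all genes. The PRP19 complex and catalytic helicases had 3 of 21 lower, namely Xab2 (-2.20), Plrg1 (-1.90) and Ctnnbl1 (-1.43). The branch site and U2 partners had 2 of 12 lower, Puf60 (-1.77) and Sf1 (-1.02), and the other snRNP proteins 2 of 13, Txnl4b (-1.75) and Eftud2 (-0.97). In the exon junction complex 1 of 7 rose, Magoh (0.80, adjusted p = 0.00681), and 1 fell, Eif4a3 (-0.60, adjusted p = 0.0491). Of the decapping and decay list 1 of 9 genes was lower, Xrn2 (-0.90), a nuclear exonuclease gene rather than a partner of the cytoplasmic LSm ring. Of the SR kinases and related proteins 1 of 14 was lower, Clk3 (-1.82). The hnRNP list held 1 gene, Raly (-1.39), which was lower. The assembly list and the 1 hnRNP gene had a larger share of lower calls than the 24.9% of all genes, and the other lists a smaller one. Of all genes, 1353 were called lower as reported, 351 under quantile normalization and 468 under median ratio scaling. Without KO libraries 1, 4 and 6 the count was 328. The lists were not counted under these settings.

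The second comparison asked the same of the E5.5 epiblast. Here 5 of 8 SF3 genes and 2 of 10 SR protein genes were lower in KO, 1 SR protein gene, Srsf2, was higher, and no LSm ring gene was called. Of 29 members tested, 27.6% were called, 24.1% lower and 3.45% higher, against 34.1% of all 5956 genes tested, 18.5% lower and 15.6% higher. The median member changed by -0.24 and the median gene by -0.07. In 11 of 29 members (37.9%) the libraries separated, with all KO values below all WT values, against 26.6% of all genes, and in 2 (6.90%, against 22.6%) all KO values lay above. The trophectoderm and epiblast marker sums given above differ between the same libraries, and their part in these results was not tested.

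Sf3b4, the SF3B subunit that binds RNA upstream of the branch site, stood at 32.3, 55.4 and 49.0 FPKM in KO epiblasts, against 191, 132 and 123 FPKM in WT epiblasts. Every KO value lay below every WT value, and the change was -1.70 (SE 0.243, adjusted p = 0.000785). Sf3a1 stood at 14.7, 21.3 and 18.5 FPKM in KO, against 50.8, 41.9 and 40.7 FPKM in WT (-1.26, SE 0.209, adjusted p = 0.00167). Sf3a2, which joins SF3A to the U2 particle, stood at 2.19, 5.22 and 3.03 FPKM in KO, against 28.7, 18.5 and 7.19 FPKM in WT (-1.96, SE 0.456, adjusted p = 0.00966). These 3 genes again had no overlap between the groups, although the WT values of Sf3a2 were far apart.

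Sf3b3 stood at 61.9, 89.2 and 58.7 FPKM in KO, against 121, 104 and 114 FPKM in WT (-0.71, SE 0.197, adjusted p = 0.0195). Its neighbour Cog4 averaged 30.7 ± 3.08 FPKM in KO and 33.1 ± 4.85 FPKM in WT (SD, n = 3 each) and was not called. Sf3a3, the SF3A subunit that contacts the branch site region, stood at 96.9, 109 and 107 FPKM in KO, against 146, 137 and 156 FPKM in WT (-0.49, SE 0.154, adjusted p = 0.0330). The calls of Sf3a3 and Sf3b3 ended without any 1 of the WT libraries, and that of Sf3a3 also without KO library 1, with changes of -0.53 to -0.43 and -0.89 to -0.59 over all single libraries left out. The other 3 of 8 SF3 genes were not called. Sf3b1, which clamps the branch site helix and is the target of splicing inhibitors, averaged 87.0 ± 6.52 FPKM in KO and 79.2 ± 1.39 FPKM in WT, Sf3b2 124 ± 3.48 and 119 ± 6.11 FPKM, and Sf3b5 246 ± 65.6 and 301 ± 15.6 FPKM, in the same order (SD, n = 3 each). Under median ratio scaling 3 of the 8 SF3 genes were called lower, and under quantile normalization 5. Of all 5956 genes, 1072 and 1193 were called lower under the same settings, in that order.

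Srsf2, which encodes the exonic enhancer binding protein SC35, stood at 52.9, 59.4 and 44.3 FPKM in KO epiblasts, against 12.2, 12.7 and 23.6 FPKM in WT epiblasts. The groups did not overlap and the change was 1.68 (SE 0.264, adjusted p = 0.00123). Srsf2 shares 1465 bases of its span (chr11:116849897-116853675) with Mfsd11, which averaged 5.24 ± 2.98 FPKM in KO and 4.74 ± 1.54 FPKM in WT and was not called. Srsf4 stood at 17.5, 17.8 and 20.1 FPKM in KO, against 38.1, 36.4 and 30.6 FPKM in WT (-0.88, SE 0.194, adjusted p = 0.00628). Srsf6 stood at 132, 144 and 172 FPKM in KO, against 232, 219 and 214 FPKM in WT (-0.57, SE 0.158, adjusted p = 0.0189). Both encode SR proteins with long arginine-serine tails, and in both every KO value lay below every WT value. The Srsf6 call ended without any 1 of the WT libraries or KO library 1 (-0.68 to -0.49), while Srsf2 and Srsf4 were called without any single library.

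The remaining 7 SR genes had changes between -0.44 (Srsf3, adjusted p = 0.0590) and 0.13 (Srsf11) at E5.5. The 7 LSm ring genes had changes between -0.50 (Lsm4) and 0.08 (Lsm6), and limma gave 0 of the 7 an unadjusted p below 0.05. Lsm7, for example, stood at 299.9, 225 and 298 FPKM in KO epiblasts, against 323, 269 and 323 FPKM in WT epiblasts. The 95% interval of its change ran from -0.53 to 0.21. Every KO value lay below every WT value for Lsm2, at 195 to 224 against 237 to 268 FPKM. The same held for Lsm4, at 22.4 to 37.4 against 38.9 to 49.2 FPKM. Lsm14b stood at 1.92, 0.986 and 2.54 FPKM in KO, against 4.36, 3.88 and 3.34 FPKM in WT, with no overlap (-0.82, adjusted p = 0.0578).

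**Figure D4:**
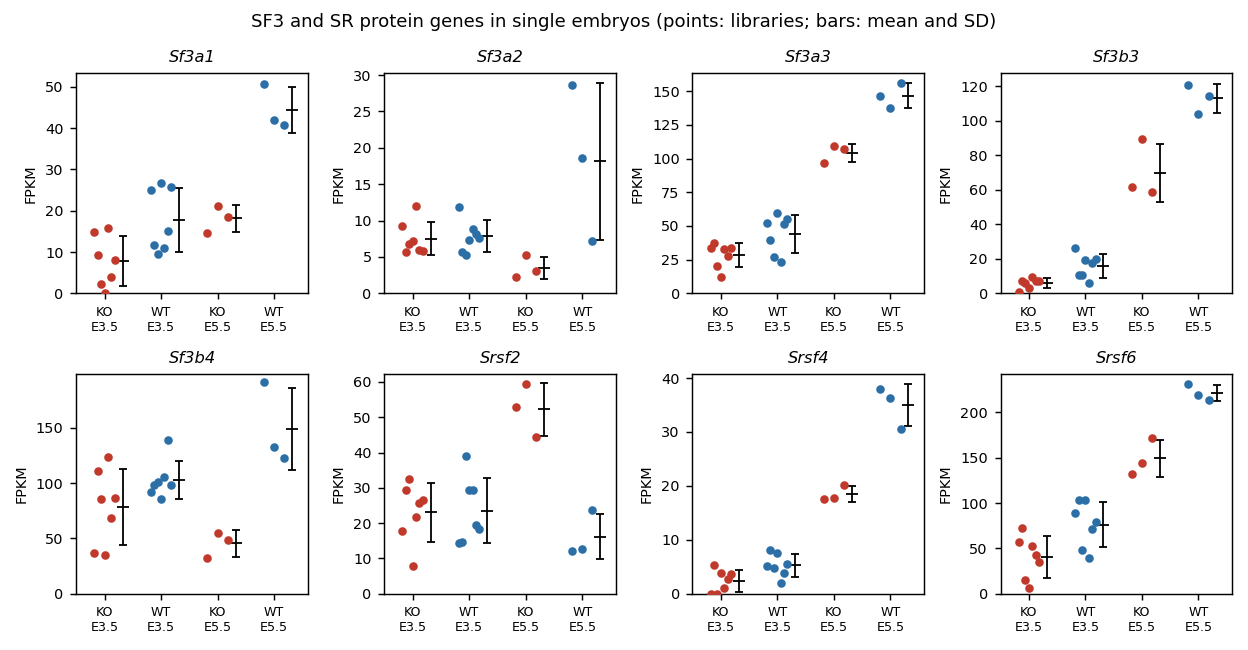
FPKM of 5 SF3 genes and 3 SR protein genes in single embryos, with KO left of WT at E3.5 (ICM) and E5.5 (epiblast); points are libraries and bars the mean and SD. At E5.5 the KO libraries lie below the WT libraries in every panel but Srsf2, where they lie above, at 44.3 to 59.4 FPKM against 12.2 to 23.6 FPKM.

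In KO E5.5 epiblast the exon junction complex had 3 of 7 tested genes lower and 0 higher, Acin1 (-0.71), Magoh (-0.63) and Rbm8a (-0.54). The branch site and U2 partners had 4 of 12 lower and 0 higher, with the smallest p-values for Phf5a (-0.79), a small subunit of SF3B, U2af2 (-1.11), which binds the polypyrimidine tract, and the branch point binding protein gene Sf1 (-0.95). The assembly proteins had 3 of 12 lower, Gemin4 (-1.16), Gemin5 (-0.86) and Phax (-0.61). The PRP19 complex and helicases had 4 of 21 lower and 1 higher, led by Ctnnbl1 (-0.69), Aqr (-0.69) and Dhx8 (-0.78). Of the other snRNP proteins 2 of 15 were lower, Zmat2 (-0.87) and Eftud2 (-0.75), and of the SR kinases and related proteins 1 of 15, Scaf4 (-0.93). The decapping and decay list had 1 of 8 higher, the nuclear exonuclease gene Xrn2 (0.72), and 1 lower, Edc4 (-0.84). Raly was not called (-0.95, adjusted p = 0.0714). Of all genes 18.5% were lower and 15.6% higher. The exon junction, branch site and assembly lists had larger shares of lower calls, the PRP19 list had 4 of 21, near that share, and the other lists smaller ones.

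Whether the KO effect itself differed between the stages was tested as the interaction of genotype and stage over the 20 embryo libraries. The stages also differed in isolation, by immunosurgery or hand dissection, and stage and isolation cannot be told apart here. Of 29 members, 1 was called higher and 2 lower, against 14% of all 5917 genes tested, 10.6% higher and 3.38% lower. Quantile normalization and median ratio scaling moved the median difference over all genes to -0.07 and 0.16, against 0.56 as reported. Under them 0 members were higher and 4 and 5 lower, against 407 and 340 of 5917 genes higher and 398 and 267 lower. Without KO ICM libraries 1, 4 and 6, 1 member was higher and 3 lower, against 594 and 270 of 5995 genes. Sf3b4, whose difference of -1.18 was not called as reported (adjusted p = 0.0963), was called lower under quantile normalization (-1.89, adjusted p = 0.000866), median ratio scaling (-1.75, adjusted p = 0.00393) and without those libraries (-1.68, adjusted p = 0.00126). The Lsm7 effect at E5.5 was lower than that in the ICM by 1.26 (log2 difference -1.26, SE 0.266, adjusted p = 0.00293). The Sf3a2 effect was also lower at E5.5 (-1.91, SE 0.550, adjusted p = 0.0223), where in ICM it ranged from 5.74 to 11.9 FPKM in KO and from 5.24 to 11.9 FPKM in WT. The Srsf2 effect was higher at E5.5 (1.74, SE 0.553, adjusted p = 0.0389), where in ICM it averaged 23.0 ± 8.29 FPKM in KO and 23.6 ± 9.26 FPKM in WT (SD, n = 7 each). The Lsm7 difference was called under all 31 alternatives, which did not include the detected gene count as a term. That of Sf3a2 was not called without WT E5.5 library 1 or 2 or KO E5.5 library 1 or 3 (-2.43 to -1.50), and that of Srsf2 was not called under either scaling, without WT ICM library 3, 4 or 5, without WT E5.5 library 1 or 2, or without any 1 of the KO E5.5 libraries (1.51 to 2.03). The differences for Lsm5 (-1.25), Lsm6 (-0.77) and Lsm2 (-0.72) had adjusted p of 0.0618, 0.146 and 0.0547 and were not called. Sf3a1 and Sf3b3 were called lower in KO at both stages in the main tests, although their ICM calls ended under either scaling. Their differences (0.20 and 0.64) were not called either, with 95% intervals from -1.59 to 1.99 and from -0.71 to 1.99.

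The third comparison followed the same genes through normal development, in WT E5.5 epiblast against WT E3.5 ICM. ICM were isolated by immunosurgery and E5.5 epiblasts by hand dissection, so stage and isolation cannot be told apart. Of 29 members tested, 19 were higher in the E5.5 epiblast and 3 were lower, among them 7 of 8 SF3 genes and 8 of 10 SR protein genes higher. The LSm ring had 1 of 7 higher and 2 lower. That is 75.9% called, 65.5% higher and 10.3% lower, against 56.3% of all 6022 genes, 37.3% higher and 18.9% lower, and the member and gene medians were 0.84 and 0.43. Quantile normalization and median ratio scaling moved the gene median to 0.09 and 0.10. Under them 16 and 13 members were higher and 4 and 5 lower. Of all 6022 genes, 1655 and 1627 were then higher and 1498 and 1451 lower. The LSm ring then had 1 and 0 of 7 genes higher and 2 and 4 lower, and the Lsm1 call ended under both. In 16 members (55.2%) all E5.5 values lay above all E3.5 values, against 33.8% of all genes, and in 1 (3.45%, against 15.9%) below.

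On the log2(FPKM + 1) scale Sf3b3 and Sf3b2 rose most among the members, while Sf3b1 and Sf3b4 of the same complex rose by 0.76 and 0.52. By group means Lsm14b rose by a larger ratio, at 3.86 ± 0.511 FPKM in WT E5.5 epiblast (SD, n = 3) and 0.299 ± 0.221 FPKM in WT ICM (SD, n = 7), a ratio that the added 1 FPKM understates. Sf3b3 stood at 121, 104 and 114 FPKM in WT E5.5 epiblast, against 5.89 to 26.5 FPKM in WT ICM (2.88, SE 0.358, adjusted p = 1.84e-05). Sf3b2, which binds near the branch site beside Sf3b4, stood at 125, 113 and 119 FPKM, against 9.23 to 31.1 FPKM in WT ICM (2.79, SE 0.336, adjusted p = 1.4e-05). The SF3A subunit genes Sf3a3 (1.78) and Sf3a1 (1.37) rose less, and none of these 4 genes had overlapping groups. Among SR genes Srsf4 stood at 38.1, 36.4 and 30.6 FPKM, against 1.90 to 8.12 FPKM in WT ICM (2.60, SE 0.336, adjusted p = 2.55e-05), followed by Srsf6 (1.60), Srsf11 (1.53), Srsf10 (1.28), Srsf5 (1.23), Srsf1 (0.98) and Srsf7 (0.97). Lsm10 stood at 39.3, 40.6 and 45.6 FPKM, against 1.43 to 23.7 FPKM in WT ICM (1.98, SE 0.545, adjusted p = 0.00736).

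The 3 members that fell were Sf3b5, at 318, 299 and 287 FPKM in WT E5.5 epiblast against 357 to 603 FPKM in WT ICM (-0.61, SE 0.178, adjusted p = 0.00990), Lsm3 (-0.83, SE 0.309, adjusted p = 0.0349) and Lsm2 (-0.42, SE 0.169, adjusted p = 0.0478). Sf3b5 thus moved opposite to the other 7 SF3 genes. Lsm6 and Lsm7 had changes of 0.07 and 0.19 with 95% intervals from -0.33 to 0.47 and from -0.15 to 0.52, and both turned negative under median ratio scaling (-0.32 and -0.21). The remaining called members were higher by 0.52 to 1.92 (Sf3b4, Lsm1, Sf3b1, Srsf9, Lsm14a, Sf3a2 and Lsm14b), and all of these but Lsm14b, as well as Lsm2 and Lsm3, lost the call without WT E5.5 library 1 or without library 2. Srsf9 shares 602 bases of its span with Gatc, whose reads cannot be told apart there. The trophectoderm markers summed to 78.2 to 122 FPKM in WT E5.5 epiblast and 104 to 994 FPKM in WT ICM, and their part in these changes was not tested.

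Partner genes were read over the same interval. The SR kinases and related proteins had 11 of 15 higher and 0 lower (Tra2b 1.63, Srrm1 1.35, Scaf11 2.18), the branch site and U2 partners 9 of 12 higher and 0 lower (Dnajc8 1.11, Ddx46 2.46, Rbm17 1.66), and the other snRNP proteins 9 of 14 higher and 1 lower (Luc7l3 2.02, Sart3 2.09, and Zmat5 -1.999). The exon junction complex had 4 of 7 higher (Acin1 3.19, Pnn 2.66, Casc3 1.22). The assembly proteins had 6 of 12 higher and 1 lower (Gemin4 2.00, Phax 1.63, Tgs1 1.25), and the decapping and decay list 4 of 9 higher (Eif4enif1 1.27, Edc3 1.61, Ddx6 1.38). The PRP19 complex and helicases had 9 of 21 higher and 2 lower, with Aqr at 1.84, Ctnnbl1 at 2.87 and the helicase gene Dhx16 at -3.23. Raly was not called (adjusted p = 0.998). Of all genes 37.3% were higher and 18.9% lower, so the shares of higher calls in the PRP19 and decay lists were near the background. Values in parentheses are log2 changes of genes with adjusted p below 0.05.

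Along the members, the ICM KO change ran with gene length, with a Spearman rho of -0.51 between annotated span and log2 change over 28 members, against -0.01 over 5170 genes. The developmental change ran the other way, with a rho of 0.47 over 29 members, against 0.06 over 5715 genes. The E5.5 KO change gave 0.16 over 29 members and 0.11 over 5657 genes. These are descriptions, since the members share their libraries. The LSm ring genes span at most 18658 bases (Lsm1), while SF3 genes reach 42333 bases (Sf3b1) and SR protein genes 28196 bases (Srsf4). Lsm14a lies outside the ring. Span and role group were not separated in these correlations. Sf3b5 spans 734 bases (chr10:13008450-13009183) and Lsm7 2385 bases (chr10:80852825-80855209), while Sf3b3 spans 36316 bases and Lsm14a, the longest member, 45883 bases.

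In single E4.5 cells the labels name no embryo, so each group counts as 1 sample and no test was made. Ratios are of group means plus 1 FPKM, and a gene is counted past 2-fold. In epiblast cells 13 of 29 members (44.8%) were past 2-fold, 2 higher in KO and 11 lower, against 54.1% of 5872 genes, 19.7% higher and 34.5% lower. The median member stood at -0.47 and the median gene at -0.23. The members past 2-fold lower included 4 of 7 LSm ring genes, Lsm2 (-1.95), Lsm7 (-1.28), Lsm5 (-1.10) and Lsm3 (-1.06). All 4 other LSm genes that averaged at least 1 FPKM were among them, Lsm14a (-2.62), Lsm14b (-1.27), Lsm12 (-1.27) and Lsm10 (-1.21). Lsm11 fell below that mean. The rest were Srsf4 (-3.67), Sf3a1 (-1.49) and Srsf7 (-1.23). Those higher were Sf3b1 (1.62) and Srsf9 (1.76).

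In 2 members the KO and WT epiblast cells did not overlap, both lower in KO, against 3.99% of all genes. Srsf4 stood at 0, 3.95 and 0.0842 FPKM in the 3 KO cells, while the 7 WT cells ranged from 4.98 to 66.3 FPKM, with a median of 28.1. Lsm12, an LSm-domain protein outside the rings, stood at 13.4, 9.06 and 21.3 FPKM in KO cells, against 22.7 to 53.2 FPKM in WT cells, with a WT median of 30.8. Lsm7 stood at 145, 80.5 and 101 FPKM in the 3 KO cells, and its 7 WT values, 110.1 to 400.1 FPKM, overlapped them in 1 KO cell. Sf3b1 was spread among the KO cells, at 241, 22.1 and 176 FPKM in KO against 19.5 to 83.2 FPKM in WT, and Srsf9 was at 0 in 1 of the 3 KO cells. KO cells held 3026 to 3628 detected genes and WT cells 3878 to 4682. The trophectoderm markers summed to 235 to 384 FPKM in KO epiblast cells and 68.2 to 219 FPKM in WT epiblast cells, and the part of either in the lower values was not tested. The PE markers summed to at most 3.63 FPKM in KO and 35.5 FPKM in WT epiblast cells, and Gata6, Gata4 and Sox17 were below 1 FPKM in all of them.

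In PE cells 9 of 28 members (32.1%) were past 2-fold, 6 higher in KO and 3 lower, against 69.2% of 4695 genes, 42.4% higher and 26.8% lower. Lsm5 stood at 234 and 165 FPKM in the KO cells against 32.8 FPKM in the WT cell, Lsm3 at 271 and 381 against 57.1 FPKM, and Lsm4 at 98.3 and 158 against 23.6 FPKM. Srsf1, Sf3b5 and Lsm12 were the others past 2-fold higher, with log2 ratios of 2.17, 1.21 and 1.10. Srsf5 stood at 252 and 197 FPKM in KO cells against 516 FPKM in the WT cell, Sf3b1 at 55.7 and 85.8 against 146 FPKM, and Lsm11 was listed at 0 in both KO cells against 4.48 FPKM. With 1 WT cell the spread among WT cells is not known. The 11 PE markers summed to 479 and 849.6 FPKM in the KO cells against 2719 FPKM in the WT cell. Dab2 and Amn stood at 1384 and 746 FPKM in the WT cell, against at most 283 and 0.251 FPKM in KO cells. Gata6 (17.0 to 27.4 against 1.68 FPKM) and Sox17 (57.6 to 62.2 against 23.0 FPKM) were higher in KO. The relative depth of the KO cells was 100% and 90.8% of the deepest cell library, against 57.2% in the WT cell. Its part in these ratios was not tested. The LSm ring had a positive median ratio in KO PE cells (0.99, beside 0.46 over all genes) and a negative one in KO epiblast cells (-1.06, beside -0.23), and this contrast rests on 1 WT PE cell and was not tested.

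**Figure D5:**
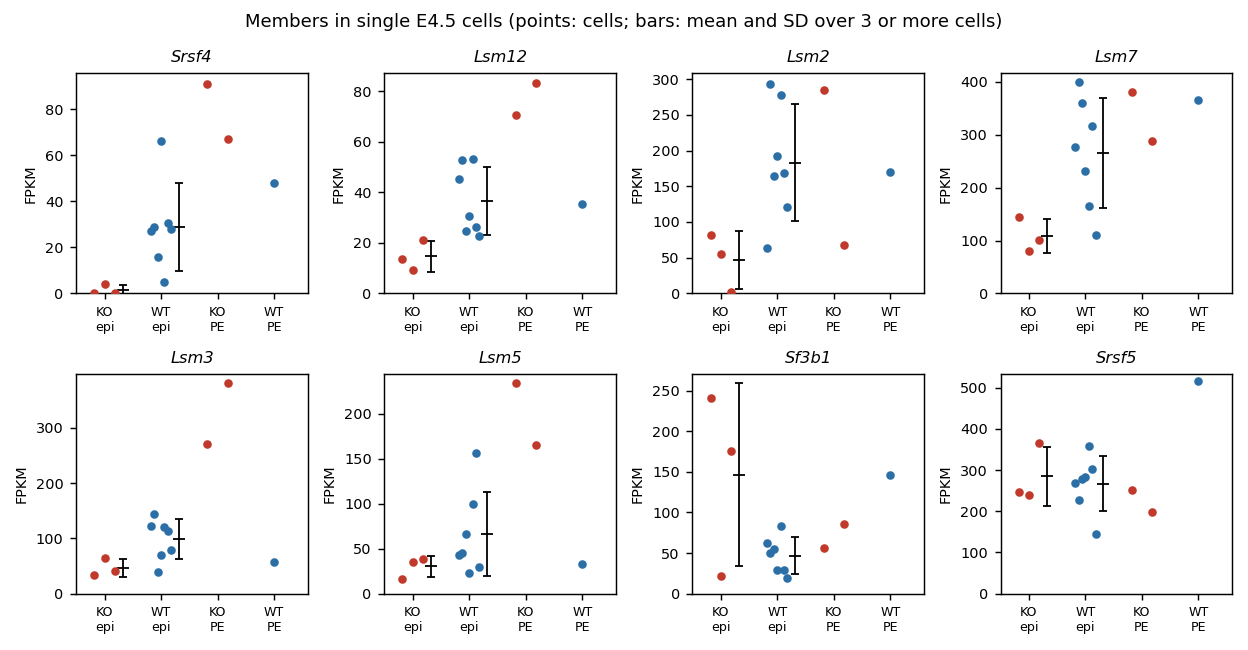
FPKM of 8 members in single E4.5 cells, with KO left of WT for epiblast (epi, 3 and 7 cells) and primitive endoderm (PE, 2 and 1 cells); points are cells and bars the mean and SD over 3 or more cells. Srsf4 and Lsm12 separate the epiblast cells, with KO maxima of 3.95 and 21.3 FPKM under WT minima of 4.98 and 22.7 FPKM.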

How the data were processed

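RNA was measured in 33 libraries by SMART-seq2, which does not mark strand, per the labels' protocols. The deposited values are FPKM per gene. Per the submitters' processing notes, Trim Galore 0.6.4 and STAR 2.7.3 were used with mm10, and which tool computed FPKM is not stated there or in the labels. Of 7186 lines, 4 with 2 repeated names were left out. No value column was left unmatched to a sample.

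Tests between embryo groups used limma 3.58.1 (R 4.3.3; trended, robust variance) on log2(FPKM + 1), so folds of low genes are understated. Genes had a mean of at least 1 FPKM over the libraries compared, and p-values were adjusted (Benjamini-Hochberg) over all of them, with 0.05 as the threshold. The fit was tested on simulated data. Single E4.5 cells were described without a test. Detected genes have at least 1 FPKM. The members, gene lists and tests were chosen with earlier results of these data known.

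Named genes were every called member, or the 12 largest with at least 10 FPKM where a direction held more, up to 6 members each way in E4.5 cells whose groups did not overlap with at least 20 FPKM, and up to 3 genes of each list by p. Other named members were chosen after their values were seen. Replicate numbers were not treated as pairs in the main fits. Coordinates and promoters are from RefSeq (GRCm38.p6, the same assembly as mm10), and all 30 members matched its gene table. The span description was added after seeing the data. H3K4me3, ATAC and DNA methylation data were not used here.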

Additional observations from a re-analysis of the deposited data

Results flagged for a closer look

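Of 29 members tested, 3 had a KO effect that differed between E5.5 epiblast and E3.5 ICM in the limma interaction: Sf3a2 by -1.91, Lsm7 by -1.26 and Srsf2 by 1.74 on the log2 scale. Lsm7 was called under every alternative tried, with -1.35 to -1.13 when single libraries were left out. The detected gene count, which ended the Lsm7 call in E3.5 ICM, was not tried as a term here. Sf3a2 was no longer called under 5 of 31 alternatives and Srsf2 under 12 of 31.

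In 9 of 90 groups of 7 libraries or cells, a single value stood far from the others by Dixon's ratio on the log2(FPKM + 1) scale, where chance flags about 1 in 20 groups. In KO ICM library 4, Lsm10 was listed at 0 beside 11.3 to 39.0 FPKM in the other 6, Lsm3 was at 10.4 beside 30.1 to 54.7 FPKM, and Srsf2 was at 7.70 beside 17.7 to 32.5 FPKM. In KO ICM library 1, Sf3b5 was at 403 beside 538 to 662 FPKM. In WT ICM, Lsm4 was at 75.9 FPKM in library 2, beside 46.9 to 56.7 FPKM, and Sf3b4 at 139 FPKM in library 6, beside 85.9 to 105 FPKM. In WT E4.5 epiblast cells, Lsm10 was at 0.329 FPKM in cell 3, beside 13.1 to 39.5 FPKM, Lsm11 at 1.89 FPKM in cell 7, beside 0 to 0.569 FPKM, and Lsm14b was listed at 0 in cell 5, beside 2.64 to 6.49 FPKM.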

How the results depend on the processing

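No result changed sign while called. In E3.5 ICM the 8 members called became 4 under quantile normalization, 4 with a 2-fold minimum, 1 without KO ICM libraries 1, 4 and 6, 0 with detected genes as a covariate, and 3 to 11 when single libraries were left out, where WT libraries 1, 2, 4, 6 and 7 and KO libraries 3, 4 and 6 each gave 3 to 5. In E5.5 epiblast the 8 became 4 with a 2-fold minimum, 3 with all 4 embryo groups in 1 fit, and 5 to 10 without single libraries, with 5 without any WT library. For the difference of effects the 3 became 5 with a pseudocount of 5, 5 under median ratio scaling, 8 with array weights, and 1 to 5 without single libraries. That count was 1 without WT E5.5 library 1 or 2 or KO E5.5 library 1 or 3, and 5 without KO ICM library 5. In development the 22 became 11 with a 2-fold minimum, 14 in the fit of all 4 groups, and 14 to 22 without single libraries, with 14 without WT E5.5 library 1 or 2. The cause of these changes was not tested. The replicate block gave 3 members in E3.5 ICM, 7 in E5.5 epiblast, 1 for the difference and 16 in development. Same-numbered libraries correlated by -0.13 to 0.16. Differently numbered libraries were not compared, so these values cannot decide whether the numbers pair the embryos. In E4.5 cells the counts past 2-fold stayed at 9 to 15 of a reported 13 in epiblast and 7 to 12 of a reported 9 in PE. The description by protein length that had been planned was not run, because no protein sequences were used here. FPKM carry no counts, so the depth behind low members is unknown, and the smallest change that could be detected was not measured.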
